A study of Homo sapiens with 4 samples.

Results

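Telomerase and shelterin transcripts were examined in T24, a human bladder carcinoma cell line, with and without overexpression of CBX7, a chromodomain subunit of Polycomb repressive complex 1. The genes were chosen by name: the telomerase genes TERT, TERC, DKC1 and NOP10 and the shelterin genes TERF1, TERF2, TERF2IP, TINF2, ACD and POT1. All 10 were found among the 60623 genes of the deposited table, and 9 of them passed the filter on low counts. There were 2 libraries of control T24 cells and 2 libraries of T24 cells overexpressing CBX7. Per the study's methods and the labels, stable lines were made, full-length CBX7 was carried on a pCDH-3xFLAG plasmid, and RNA was extracted with Trizol, copied from random primers and sequenced on an Illumina HiSeq. Neither what the control cells carried, nor whether a line was a clone or a pool, nor whether the libraries of a group came from separate cultures is given in the sources used here, so p-values measure only the spread between these libraries, which may be technical.

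Telomerase extends the ends of chromosomes. TERT is its reverse transcriptase and TERC the RNA that holds the template, while dyskerin (DKC1) and NOP10 belong to the H/ACA proteins that bind and stabilize TERC. Shelterin covers the telomeric repeats: TRF1 (encoded by TERF1) and TRF2 (TERF2) bind the double-stranded repeat, RAP1 (TERF2IP) binds TRF2, TIN2 (TINF2) joins TRF1 and TRF2 to TPP1 (ACD), and POT1, the partner of TPP1, binds the single-stranded end. Most normal somatic cells silence TERT, and most carcinomas, those of the bladder included, express it, whereas dyskerin, NOP10 and shelterin are made in nearly every cell.

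The sequence telomerase copies is shown because TERC is the member these libraries hardly recorded. It lies in the single exon of TERC (ENSG00000270141) on the minus strand, chr3:169764520-169765060 in GRCh38. The stretch from base 21 to base 81 of the 541-base transcript in GENCODE release 29 is printed 5′ to 3′ as DNA, with the template, bases 46 to 56, in capitals.
TERC template region: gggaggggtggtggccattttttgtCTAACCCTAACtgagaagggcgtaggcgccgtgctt

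For each gene and library the deposited table gives estimated counts, and TPM as a relative abundance after division by transcript length. The counts summed to between 20800910 and 25135488 per library. Differences between groups were computed on the counts as CPM (counts relative to the TMM-scaled library total) and tested by edgeR's quasi-likelihood method, with p-values adjusted by Benjamini-Hochberg for all 14862 genes tested. CBX7 itself was at 10.9 and 9.67 CPM in control cells and at 1774 and 1595 CPM in CBX7-overexpressing cells, so the level of CBX7 matched the label in all 4 libraries. Of the epithelial markers, KRT7, KRT8 and KRT18 had at least 20091 counts in every library, whereas KRT19 had 120 to 446, EPCAM 16 to 44 and CDH1 0 to 2. The mesenchymal markers VIM and CDH2 had at least 59879 and 2821 counts. The urothelial markers UPK1A, UPK1B, UPK2, UPK3A, KRT20 and KRT5 had at most 3 counts in any library, GATA3 had 3 to 22, and the leukocyte and endothelial markers PTPRC, CD3E, PECAM1 and VWF had at most 4. CD68, the remaining leukocyte marker, had 154.5 to 309.2 counts. CBX7 replicate 1 stood apart from the other 3 libraries. Over the 11077 genes averaging 100 counts or more, its ratio to control replicate 1 fell with gene length (Spearman's rho -0.62 across genes, which share these libraries and are not replicates), while the ratio of CBX7 replicate 2 to control replicate 2 did not (rho 0.04). The control libraries differed from each other in the same way (replicate 1 over replicate 2, rho -0.49). Differences of the members and the named list genes with CBX7 are therefore given with and without CBX7 replicate 1.

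In T24 cells, TERT (ENSG00000164362) was transcribed at a low but measurable level, below every shelterin gene. TERT lies on the minus strand, chr5:1253147-1295069. Control replicates 1 and 2 held 109 and 103 counts of it, and CBX7 replicates 1 and 2 held 137 and 124. Its TPM was 1.74 and 3.22 in control replicates 1 and 2 and 2.97 and 4.46 in CBX7 replicates 1 and 2, or 3.10 ± 1.12 (SD, n = 4). Of the genes tested, 25.7% had a lower mean TPM than TERT.

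The protein partners of TERC were the most abundant members. NOP10 was at 193.6 and 206.2 TPM in control cells and at 238.3 and 201.1 TPM in CBX7-overexpressing cells, and 95.7% of the genes tested lay below it. DKC1 was at 178.6 and 185.0 TPM in control cells and at 165.6 and 185.9 TPM in CBX7-overexpressing cells, and 95.1% lay below it. NOP10 exceeded DKC1 in 4 of 4 libraries, by 1.08 to 1.44 times in TPM, with the highest ratio in CBX7 replicate 1. With counts divided by the gene length in the table the order was the other way, NOP10 being at 0.663, 0.684, 0.900 and 0.662 times DKC1 in control replicates 1 and 2 and CBX7 replicates 1 and 2. Fitted over genes with a single annotated transcript, the length that divides the count in the deposited TPM was the table length less 248 to 263 bases, depending on the library. DKC1 exceeded TERT by 103, 57.5, 55.7 and 41.7 times in TPM in control replicates 1 and 2 and CBX7 replicates 1 and 2.

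Shelterin lay between these levels, and its 6 genes were not at equal levels. By mean TPM the order was ACD at 46.3 ± 2.995, TINF2 at 32.1 ± 2.40, TERF2IP at 31.9 ± 0.270, TERF1 at 24.5 ± 2.68, TERF2 at 19.99 ± 1.52 and POT1 at 14.3 ± 2.64 (SD, n = 4 each). TINF2 and TERF2IP could not be ordered, since TINF2 was the higher in only 2 of 4 libraries, and every other neighbour in the full TPM order from NOP10 to TERT had separate ranges. ACD, which codes for TPP1, exceeded its binding partner POT1 by between 2.78 and 4.45 times, the widest gap being in CBX7 replicate 1. By counts over table length the gap was 1.82 to 3.06 times, and ACD lay below TINF2 and below TERF2IP in 3 of 4 libraries each, so the first place of ACD depends on the length used. ACD has 2065 bases in the table, whereas its TPM corresponds to a transcript of 1395 to 1449 bases once the 248 to 263 bases are added back. The order of TERF1, TERF2 and POT1 below these was the same on both scales. Of the genes tested, between 54.1% (POT1) and 80.1% (ACD) had a lower mean TPM.

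**Figure D1:**
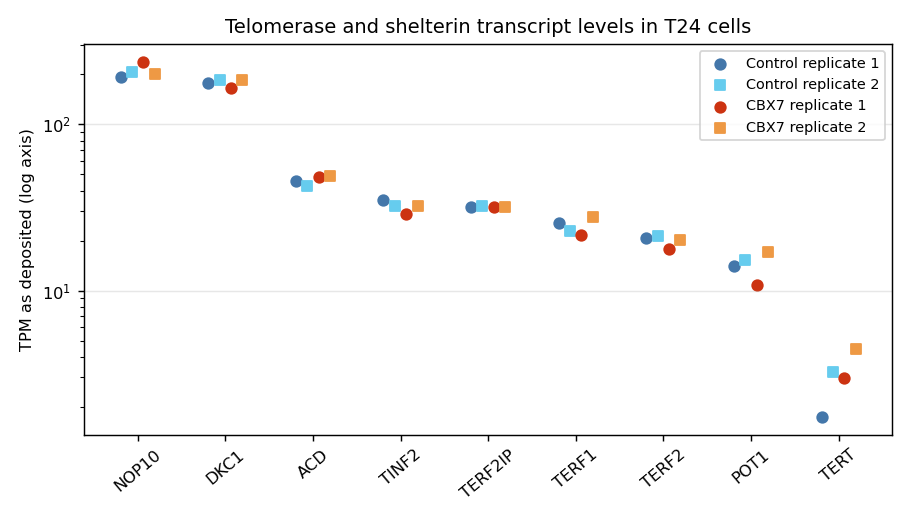
TPM as deposited on a log axis for 9 members in each of the 4 libraries (points, 1 per library), ordered by mean level. TERC, listed at 0 TPM in 3 libraries, is left out. NOP10 and DKC1 lie above 165 TPM in every library, the 6 shelterin genes between 10.9 and 48.9 TPM, and TERT between 1.74 and 4.46 TPM.

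The median shelterin TPM exceeded the TERT TPM by 16.5 and 8.55 times in control replicates 1 and 2 and by 8.54 and 6.68 times in CBX7 replicates 1 and 2. The log2 ratio of TERT to that median was -3.24 ± 0.56 (SD, n = 4 libraries). Most of that spread was not in the counts. With counts divided by the gene length in the table in place of TPM, shelterin exceeded TERT by 15.9, 13.7, 14.8 and 13.1 times and DKC1 exceeded TERT by 106, 100.3, 96.8 and 87.4 times.

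The difference lay in the transcript length that the deposited TPM of TERT assumes. In each library a straight line was fitted between count over TPM and table length on 356 genes with a single annotated transcript and refitted without those over 5% away. For 301 to 303 of those genes count over TPM lay within 5% of the line. Read back through that line, which adds the 248 to 263 bases again, the count over TPM of any gene gives an implied transcript length on the scale of the table. For TERT the implied length was 3563 bases in control replicate 1, 2264 in control replicate 2, 2295 in CBX7 replicate 1 and 1922 in CBX7 replicate 2. The gene length in the table is 4018 bases, which is that of the longest TERT transcript in GENCODE release 29, with 16 exons. GENCODE also lists TERT transcripts of 3210 bases (15 exons), 2992 bases (13 exons, annotated as nonsense-mediated decay) and 2422 bases (11 exons, retained intron) and others of 408 and 406 bases. The deposited table gives no value per transcript, so which TERT transcripts were present was not tested.

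No other tested member had an implied length that varied as much. It was 552 to 555 bases for NOP10, 2364 to 2431 for DKC1, 2107 to 2132 for TERF2IP and 1395 to 1449 for ACD. TERF1 varied most after TERT, between 2779 and 3147 bases. TPM differences of TERT between libraries therefore mix a difference in counts with a difference in assumed length, and the groups were compared on counts.

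**Figure D2:**
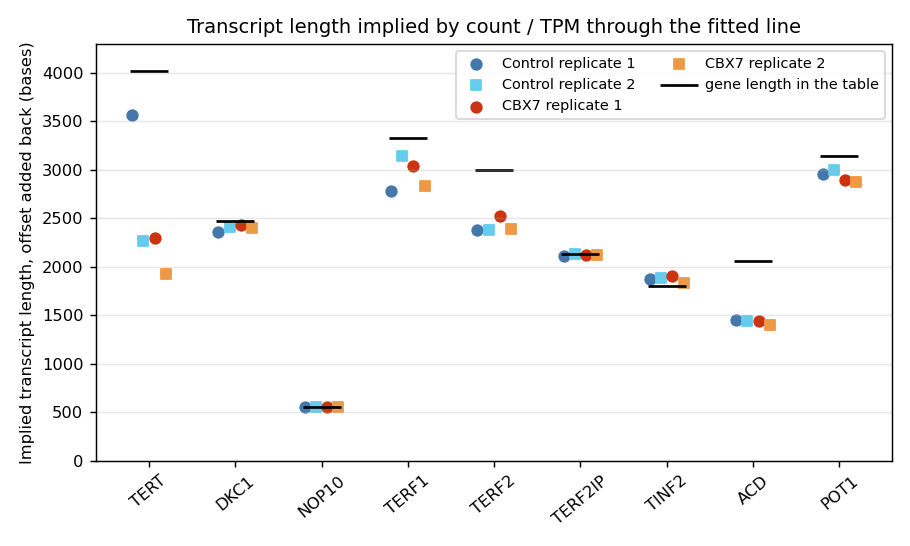
Transcript length in bases implied by count over TPM, read through the line fitted in each library (which adds back 248 to 263 bases), for each tested member (points, 1 per library) with the gene length given in the table (horizontal bars). The 4 points of TERT range from 1922 to 3563 bases, while those of NOP10 coincide near 554 bases.

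TERC had 2.35 estimated counts in control replicate 1 and 0 in the other 3 libraries, and was not tested. For a library with nothing counted, the one-sided 95% limit is taken as 3 counts (between 0.119 and 0.144 CPM), which covers counting error only, and no fold was computed. A second annotated gene, ENSG00000277925, covers 438 bases of TERC on the same strand, and reads can be divided between them. It had 1.65 and 3 counts in the control libraries and 1 count in each CBX7 library. RN7SK, an abundant nuclear RNA that like TERC carries no long poly(A) tail, had 66 to 130 counts per library, and the RNase MRP RNA had 30 to 104 in a first table entry (ENSG00000277027) and 0 in a second. RN7SL1, the RNA of the signal recognition particle, had 297 to 827, and RPPH1, the RNA of RNase P, had 2 to 18.6. These were chosen after their values were seen. Whether RNA with poly(A) tails was selected is not given in the sources used here, and the level of TERC in T24 cells could not be read from them.

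With CBX7, none of the telomerase and shelterin genes passed the test. Of the 9 tested, 0 had an adjusted p under 0.05 in edgeR, where 0.0202% of all genes did, and 0 had an unadjusted p under 0.05, where 4.74% of all genes did. DESeq2's Wald test called 0 as well, against 0.451% of all genes. Both CBX7 libraries exceeded both control libraries for 2 members, TERT and TERF1, against 15.4% of all genes tested, and for 0 members both lay below both controls, against 14.8% (30.2% in either direction). The median log2 difference of the 9 members was 0.11, beside 0.0017 over all genes tested. Without CBX7 replicate 1 it was -0.0072, with 0 members called, against 2.61% of all genes. Without CBX7 replicate 2 there were 2 called, NOP10 and ACD, against 36.8%. Members called were also 0 with no filter (1.01% of all genes), at least 10 counts in every library (0.0215%), the length correction (0.0135%) and the length and GC correction (0.0336%), and without control replicate 1 (0.363%) or control replicate 2 (0.249%).

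TERT was at 4.57 and 4.91 CPM in control cells and at 5.67 and 5.55 CPM in CBX7-overexpressing cells. The groups did not overlap, and TERT had the narrowest spread within CBX7-overexpressing cells relative to its level of the 9 members tested. The log2 difference was 0.25 (standard error 0.19, 95% interval -0.22 to 0.71, adjusted p = 0.951), a fold of 1.19 with an interval from 0.859 to 1.63. Without CBX7 replicate 1 it was 0.23 (standard error 0.24, adjusted p = 0.898). The counts carry 95% Poisson intervals of 89.5 to 131 and 84.1 to 125 in the control libraries and 115 to 162 and 103 to 148 in the CBX7 libraries, which overlap. These intervals take reads as independent and cover counting error only. They are wider than the distance between the CBX7 libraries, so the narrow spread of TERT does not show a reproducible level. After correction of each library for gene length the log2 difference was 0.29 (standard error 0.17). With the length and GC correction, chosen after seeing the data, it was 0.075.

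NOP10, the smallest H/ACA protein, had the largest log2 difference of the members, and it came from 1 library. NOP10 was at 44.4 and 46.4 CPM in control cells and at 68.2 and 44.3 CPM in CBX7 replicates 1 and 2. CBX7 replicate 2 thus lay just below both controls. The log2 difference was 0.31 (standard error 0.23, 95% interval -0.25 to 0.87, adjusted p = 0.951), and without CBX7 replicate 1 it was -0.032. Without CBX7 replicate 2 it was 0.59 (standard error 0.11, adjusted p = 2.0e-06), in a fit whose spread came from the control pair. At 554 bases, NOP10 is the shortest member tested, and with the length correction its log2 difference was 0.086.

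DKC1 was at 298.5 and 302.5 CPM in control cells and at 337.4 and 297.9 CPM in CBX7-overexpressing cells. Only CBX7 replicate 1 lay outside the controls by more than 1 CPM. The log2 difference was 0.080 (standard error 0.13, 95% interval -0.25 to 0.41, adjusted p = 0.951), and without CBX7 replicate 1 it was -0.0072. DKC1 lies on the plus strand, chrX:154762742-154777689, and the H/ACA RNA genes SNORA36A and SNORA56 in its bounds were at 0 counts in all 4 libraries.

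Among the double-strand binding proteins of shelterin, TERF1 was at 51.3 and 50.3 CPM in control cells and at 56.6 and 53.4 CPM in CBX7-overexpressing cells. The groups did not overlap, and the log2 difference was 0.11 (standard error 0.13, 95% interval -0.21 to 0.43, adjusted p = 0.951), or 0.076 without CBX7 replicate 1. Its processed pseudogene TERF1P5 had at most 6.01 counts beside at least 1056 for TERF1. TERF2 was at 34.9 and 34.2 CPM in control cells and at 37.8 and 32.2 CPM in CBX7-overexpressing cells, 1 library above both controls and 1 below. Its log2 difference was 0.019 (standard error 0.14), or -0.095 without CBX7 replicate 1.

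TERF2IP and TINF2 were split between the CBX7 libraries as TERF2 was. TERF2IP was at 46.6 and 46.0 CPM in control cells and at 55.6 and 44.5 CPM in CBX7-overexpressing cells (log2 difference 0.11, standard error 0.16, or -0.053 without CBX7 replicate 1). TINF2 was at 44.6 and 39.8 CPM in control cells and at 44.8 and 38.2 CPM in CBX7-overexpressing cells (log2 difference -0.025, standard error 0.15, or -0.14 without CBX7 replicate 1). For both genes the CBX7 libraries enclosed the controls. ACD was at 43.0 and 38.1 CPM in control cells and at 54.0 and 41.5 CPM in CBX7-overexpressing cells. The second CBX7 library of ACD fell between the controls, and the log2 difference of 0.24 (standard error 0.18, 95% interval -0.20 to 0.68, adjusted p = 0.951) was 0.040 without CBX7 replicate 1, 0.16 with the length correction and 0.043 with the length and GC correction. Without CBX7 replicate 2 ACD was called, at 0.41 (standard error 0.11, adjusted p = 0.0014).

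POT1 was the exception in the order of its CBX7 libraries. It was at 29.96 and 31.8 CPM in control cells, at 26.9 CPM in CBX7 replicate 1 and at 33.6 CPM in CBX7 replicate 2. CBX7 replicate 1 lay below both controls and CBX7 replicate 2 above them, the reverse of TERF2, TERF2IP and TINF2. The log2 difference was -0.030 (standard error 0.16), and without CBX7 replicate 1 it was 0.13. Over the 6 shelterin genes the median log2 difference was 0.066, and -0.0063 without CBX7 replicate 1. Adjusted p-values of the 9 members lay between 0.951 and 0.983.

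**Figure D3:**
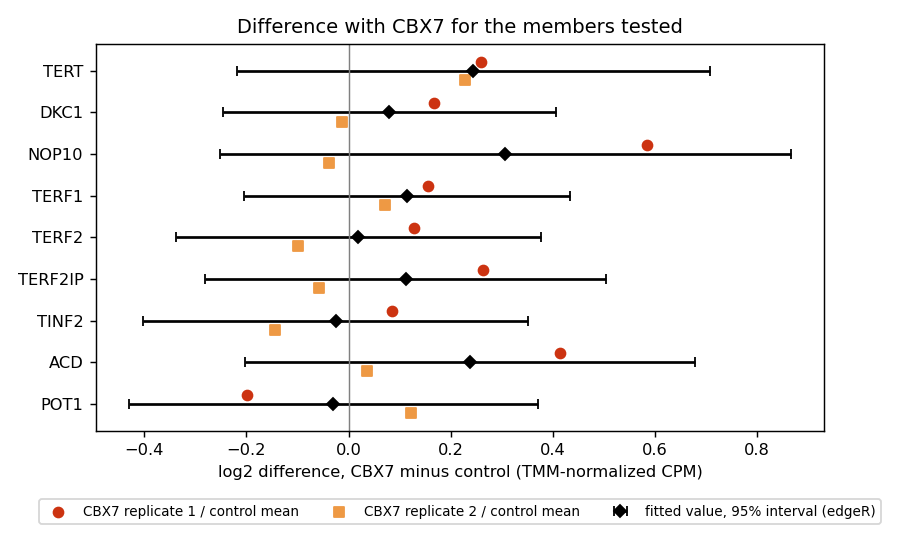
Log2 difference, CBX7 minus control, in TMM-normalized CPM for the 9 members tested. Black diamonds are the edgeR estimates with 95% intervals, and coloured points are each CBX7 library over the control mean. All 9 intervals include 0. CBX7 replicate 1 lies to the right of CBX7 replicate 2 for every gene except POT1, and the 2 libraries lie closest together for TERT. For TERT that distance is smaller than its counting error.

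Some member loci overlap other genes, and whether the libraries kept strand is not given in the sources used here, so reads of opposite strands may not be told apart. KARS, on the minus strand, covers 858 bases of the TERF2IP locus and had 4622 to 6757 counts. CARMIL2 shares 58 bases with ACD and had 106 and 82 counts in the controls and 244 and 216 with CBX7. POT1-AS1 shares 111 bases with POT1 and had at most 1.59 counts. TERF2IP, TERF2 and ACD lie on chromosome 16, POT1 on chromosome 7, TINF2 on chromosome 14, NOP10 on chromosome 15 and TERF1 on chromosome 8.

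Genes that work with telomerase and shelterin were read from 7 lists of 71 table rows, of which 69 were tested. Of these, 0 passed an adjusted p of 0.05 in edgeR (0.0202% of all genes) and 0 had an unadjusted p under 0.05 (4.74%). DESeq2's Wald test called 0 (0.451%). Both CBX7 libraries lay above both controls for 7 and below both for 11, against 15.4% and 14.8% of all genes tested. Without CBX7 replicate 2, 37 of the 69 were called, 14 higher and 23 lower, in a setting that called 36.8% of all genes (2821 higher and 2653 lower). Without CBX7 replicate 1, 0 were called, against 2.61% of all genes. The median log2 difference of the 69 was -0.083, and 0.028 without CBX7 replicate 1. It was -0.013 with the length correction and 0.0084 with the length and GC correction.

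The genes that assemble the telomerase particle had a median log2 difference of 0.21 (0.039 without CBX7 replicate 1, 0.081 with the length correction and 0.098 with the length and GC correction), with 0 called. Of the 8, 3 lay above both controls and 0 below, against 15.4% and 14.8% of all genes tested. NHP2, an H/ACA protein beside dyskerin and NOP10, was at 107.4 and 104.9 CPM in control cells and at 154.9 and 108.2 CPM in CBX7-overexpressing cells. Its log2 difference was 0.31 (standard error 0.20, adjusted p = 0.951), and 0.032 without CBX7 replicate 1 and 0.12 with the length correction. GAR1, which completes the mature H/ACA particle, was at 41.8 and 37.0 CPM in control cells and at 50.7 and 41.8 CPM in CBX7-overexpressing cells (0.23, standard error 0.16, or 0.090 without CBX7 replicate 1). The ATPase RUVBL1 (0.22), its partner RUVBL2 (0.22) and WRAP53, which brings telomerase to Cajal bodies (0.21), had similar log2 differences, which were 0.045, -0.073 and -0.014 without CBX7 replicate 1 and 0.15, 0.0084 and 0.11 with the length and GC correction. The assembly factors NAF1 (0.10) and SHQ1 (0.065) and the TERT-binding ATPase NVL (0.039) completed the list, at 0.21, 0.16 and 0.0031 without CBX7 replicate 1.

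The CST complex ends telomerase extension and starts fill-in of the complementary strand. The list of CST subunits and polymerase alpha-primase genes had a median log2 difference of -0.0082 over 7 genes (-0.050 without CBX7 replicate 1). In that list 0 lay above both controls (15.4% of all genes) and 1 below (14.8%). That gene was CTC1, the largest CST subunit, at 18.8 and 20.7 CPM in control cells and at 14.3 and 17.9 CPM in CBX7-overexpressing cells (log2 difference -0.29, standard error 0.17, adjusted p = 0.951, or -0.14 without CBX7 replicate 1). TEN1 and STN1, the other CST subunits, had log2 differences of 0.16 and -0.088, and both signs changed with the length correction, to -0.022 and 0.055. Without CBX7 replicate 1 they were -0.18 and -0.23. Of the polymerase alpha-primase genes, POLA2 was at 0.11, PRIM1 at 0.048, PRIM2 at -0.0082 and POLA1 at -0.083 on the log2 difference scale, and at -0.050, 0.086, 0.086 and 0.15 without CBX7 replicate 1.

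In the list of transcription factors known to bind the TERT promoter, 1 of 13 tested lay above both controls and 6 below. Over all genes tested the shares were 15.4% and 14.8%. The median log2 difference of the list was -0.18, with 0 called. It was -0.070 without CBX7 replicate 1, -0.079 with the length correction and -0.093 with the length and GC correction. MYC, an activator of TERT, was at 106.0 and 106.0 CPM in control cells and at 128.9 and 110.9 CPM in CBX7-overexpressing cells (0.18, standard error 0.14, adjusted p = 0.951, or 0.070 without CBX7 replicate 1). MXD1, which competes with MYC for MAX, was at 5.03 and 4.91 CPM in control cells and at 3.73 and 4.03 CPM in CBX7-overexpressing cells (log2 difference -0.36, standard error 0.20, adjusted p = 0.951), and at -0.30 without CBX7 replicate 1. The others below both controls were MXI1, GABPB1, GABPB2, ETS2 and CTCF, named after their values were seen. The WT1 gene had at most 4 counts and was not tested.

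In the remaining lists the genes farthest apart were named, and the counts above and below both controls stand against 15.4% and 14.8% of all genes tested. Of the TERC maturation and decay genes, with 0 of 9 above both controls and 2 below, TOE1, a deadenylase, had the highest log2 difference (0.11) and RBM7, a subunit of the nuclear exosome targeting complex, the lowest (-0.16). Of the nucleases, helicases and shelterin partners, with 1 of 15 above and 1 below, ZBTB48, a telomeric zinc finger protein, had the highest (0.28) and TNKS2, a tankyrase that modifies TRF1, the lowest (-0.26). Of the DNA end-sensing factors, with 0 of 9 above and 1 below, XRCC6, which codes for Ku70, had the highest (0.11) and the kinase ATM the lowest (-0.32). Of the ATRX-DAXX list, with 2 of 8 above and 0 below, DAXX, a histone H3.3 chaperone, had the highest (0.17) and SLX4IP the lowest (-0.31). None was called, and all had an adjusted p of 0.951. Without CBX7 replicate 1 the log2 differences of TOE1, TNKS2, XRCC6 and ATM changed sign, to -0.073, 0.084, -0.0029 and 0.17, and those of RBM7, ZBTB48, DAXX and SLX4IP kept it, at -0.15, 0.11, 0.068 and -0.096.

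ATM shows how far CBX7 replicate 1 departed. It was at 69.7 and 86.5 CPM in control cells, at 38.3 CPM in CBX7 replicate 1 and at 87.3 CPM in CBX7 replicate 2. Its length in the table is 12954 bases, and without CBX7 replicate 1 its log2 difference was positive in place of negative. Over the 78 tested members and list genes, the log2 ratio of CBX7 replicate 1 to the control mean ran from -1.03 to 0.59 (SD 0.37) and had a Spearman's rho of -0.82 with gene length. For CBX7 replicate 2 the ratios ran from -0.30 to 0.30 (SD 0.12), with a rho of 0.29. These are descriptions across genes of the same libraries. The part of gene length in each difference was not tested gene by gene.

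**Figure D4:**
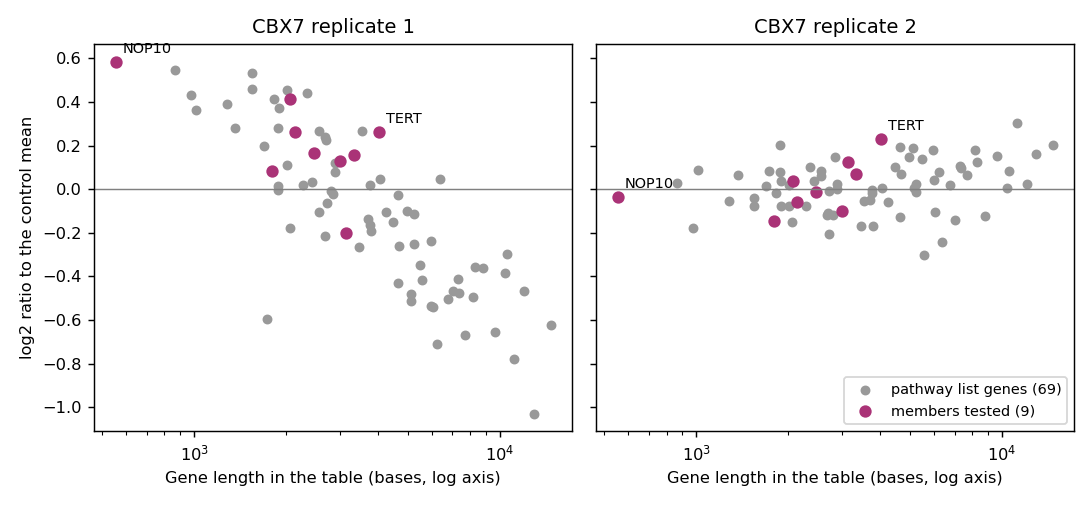
Log2 ratio of each CBX7 library to the control mean (TMM-normalized CPM) against gene length in bases (log axis) for the 9 members tested (purple) and 69 genes of the lists (grey). Ratios of CBX7 replicate 1 fall from 0.59 at NOP10 to -1.03 at ATM, while those of CBX7 replicate 2 stay between -0.30 and 0.30. TERT lies above 0 in both panels.

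The list genes with TPM values most like those of TERT over the 4 libraries were ERCC4 at 3.25, 4.15, 2.41 and 3.9 TPM, SLX4IP at 2.59, 3.30, 1.68 and 2.83 TPM, and GABPB2 at 4.28, 3.42, 2.35 and 3.85 TPM in control replicates 1 and 2 and CBX7 replicates 1 and 2. The log2 differences with CBX7 were -0.22 for ERCC4 and -0.24 for GABPB2, and 0.028 and -0.12 without CBX7 replicate 1, with 0 called in edgeR. The Euclidean distances of the 3 genes from TERT in log2(TPM + 0.1) were 0.997, 1.15 and 1.31. In TPM all 3 were lowest in CBX7 replicate 1, whereas TERT was lowest in control replicate 1. The TPM of TERT there assumes a longer transcript than in any other library. Its counts were 109 and 103 in control replicates 1 and 2.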

How the data were processed

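RNA of 2 control and 2 CBX7-overexpressing T24 libraries was measured. The authors deposited estimated counts that need not be whole, TPM values with group means, and gene lengths. The deposited columns of their own comparison (a fold ratio, its log2, a p-value and its adjusted form) were not used. The submitters' processing notes name cutadapt 1.9.1, HISAT2 2.0.1, HTSeq 0.6.1, DESeq2 and hg19, without roles. HTSeq assigns whole reads, so how the estimated counts and TPM arose is not settled. Of the table's identifiers, 96.5% are in GENCODE release 29 (GRCh38), used for coordinates and sequences.

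Counts were rounded, filtered by filterByExpr, scaled by TMM (factors 0.962 to 1.02) and tested in edgeR 4.0.16 (R 4.3.3; glmQLFit and glmQLFTest, condition only) with Benjamini-Hochberg adjustment over all genes. The test was checked on simulated data. DESeq2 1.42.0, other scalings and filters, a replicate block, length correction, an adjusted p under 0.01 and each library left out were alternatives, and the length and GC correction was chosen after seeing the data. Totals were 23626206 and 20800910 (control) and 25135488 and 21961166 (CBX7). Within each group the libraries were not copies of each other, with a chi-square over degrees of freedom of 6.50 for the controls and 60.4 for the CBX7 pair. An exact two-sided permutation test of 2 against 2 cannot give a p under 0.333.

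Members and lists were chosen with earlier results of these data known. Named were the members, CBX7, all genes of the assembly and CST lists, the highest and lowest of each other list, and the 3 list genes nearest to TERT.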

Additional observations from a re-analysis of the deposited data

How the results depend on the processing

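Of the 9 tested members, 0 were called under every setting except without CBX7 replicate 2, where NOP10 and ACD were. Leaving out a replicate gave 0 to 2 members called and 37 to 5474 of all genes (5474 without CBX7 replicate 2, 388 without CBX7 replicate 1), where the lone library is assumed to vary like the other group. In place of 3 genes called, DESeq2's Wald test called 67, no filter 265, the length and GC correction 5 and an adjusted p under 0.01 called 1. With 2 pairs, shared replicate numbers do not establish pairing (deviations of same-numbered libraries correlated at 0.31 over 14862 genes and at 0.61 over 11077). With the replicate block 361 genes were called, and 413 with the block and length correction, with 0 members in both.

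TERT kept its direction and was not called in any setting, with a log2 difference of 0.075 to 0.29, and 0.19 to 0.30 with a replicate left out. The TERT level relative to shelterin was -3.84 with counts per length, against -3.24, and -3.41 to -2.98 with a replicate left out. By counts per length, a comparison chosen after seeing the data, the log2 ratio of NOP10 to DKC1 was -0.47 in place of 0.23, and that of ACD to POT1 was 1.13 in place of 1.71. The log2 difference changed sign with the length and GC correction for POT1 (0.023), STN1 (0.048), TEN1 (-0.14), POLA1 (0.033) and PRIM2 (0.015). With the length correction it did so for STN1 (0.055), TEN1 (-0.022) and PRIM1 (-0.035), and with that and the replicate block for STN1 (0.029), TEN1 (-0.024) and PRIM1 (-0.040). Of the 36 named genes tested besides CBX7, a further 20 had a log2 difference smaller by over 1.5 times and 2 a larger one with the length correction, and 18 and 3 with the length and GC correction. With a replicate left out, the sign changed for these genes, over the ranges given: DKC1 -0.0072 to 0.17, NOP10 -0.032 to 0.59, TERF2 -0.095 to 0.13, TERF2IP -0.053 to 0.26, TINF2 -0.14 to 0.084, POT1 -0.20 to 0.13, NAF1 -0.0064 to 0.21, SHQ1 -0.022 to 0.16, WRAP53 -0.014 to 0.41, RUVBL2 -0.073 to 0.46, NVL -0.036 to 0.12, TOE1 -0.073 to 0.28, STN1 -0.23 to 0.049, TEN1 -0.18 to 0.43, POLA1 -0.34 to 0.15, POLA2 -0.050 to 0.27, PRIM2 -0.10 to 0.086, TNKS2 -0.71 to 0.084, XRCC6 -0.0029 to 0.23, ATM -1.03 to 0.17 and ERCC4 -0.50 to 0.028. The cause of these changes was not tested. TERT, at 103 to 137 counts, and TERC, at 0 to 2.35, had the fewest counts of the members. Whether depth set the lack of calls was not tested.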
